A study of Mus musculus with 16 samples.

Results

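Pro-B identity genes are the genes that commit a blood progenitor to the B lineage or build the signalling complex of the earliest B cells. Here they are 9 genes of the 55414 Ensembl identifiers counted, chosen by symbol. They are the transcription factor genes Pax5 and Ebf1, the coactivator gene Pou2af1, and the surrogate light chain genes Vpreb1 and Igll1. The others are Vpreb3, which is related to Vpreb1, and the signalling genes Cd79a, Cd79b and Blnk. All 9 symbols matched 1 identifier each. RNA was measured in bulk in 16 libraries of sorted leukaemia-propagating cells (LPC), the fraction of a leukaemia taken to carry the disease forward. Every library came from mice with the same disease label, pro-B acute lymphoblastic leukaemia, and the same genotype, a Kmt2a-AFF1 fusion together with overexpression of the microRNA miR-128a. The source tissue was the marrow (BM) in 8 libraries and the central nervous system (CNS) in 8. Cells were sorted as lineage-negative Sca1+ cKit+ cells with the interleukin-7 receptor (LSK) or as lineage-negative Sca1- cKit+ cells (LK). The sample titles name the LK sort LK/CLP, without spelling out CLP. Crossing tissue and sort gives 4 groups of 4 libraries, BM LSK, BM LK, CNS LSK and CNS LK, and the study asked how the niche (CNS or BM) and the LPC type (LSK or LK) set the transcriptome.

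The labels do not give the promoter that drives either transgene, the age or number of the animals, or the antigens of the lineage cocktail. Whether the sort removed cells with B-cell antigens on their surface was therefore not tested. None of the 16 libraries is labelled as normal pro-B cells, so levels were judged against genes taken to be unused by blood cells. These were the 1407 olfactory receptor genes (Olfr), which encode the odour sensors of the nose. The labels do not say that the 4 libraries of a group came from separate animals, so p-values measure only the spread between these libraries.

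In the making of a B cell, Ebf1 and Pax5 switch on the B-lineage programme, and Pax5 also keeps genes of other lineages silent. Vpreb1 and Igll1 encode the surrogate light chain, which pairs with the immunoglobulin heavy chain before a true light chain exists. Cd79a and Cd79b carry the signal of this pre-B receptor into the cell, where the adaptor Blnk links it to further enzymes. Pou2af1, also called OCA-B, binds the octamer factors Oct-1 and Oct-2 on DNA and raises transcription from octamer promoters.

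Promoter sequence was examined because Pou2af1 acts through the octamer, and its own level differed so much from that of the other 8 genes. RefSeq windows of 300 bases (250 before to 50 after the start site, GRCm38.p6) were found for 8 of the 9 genes, with 9 windows in all. Both strands were searched for the octamer ATGCAAAT, for the E-box CAGGTG bound by E proteins such as Tcf3, and for the EBF palindrome, TCCC and GGGA set apart by any pair of bases. The octamer was present, as its reverse complement ATTTGCAT, in the windows of Vpreb3 and Blnk, and in 1.74% of all 32851 windows. These motifs were chosen after the members' windows had been looked at, so such shares are a description and no test of enrichment. The Vpreb3 stretch lies at chr10:75948244-75948273 on the plus strand and the Blnk stretch at chr19:40994333-40994362 on the minus strand. Each is shown 5′ to 3′ on the strand of its gene, with the octamer in capitals.
Vpreb3 octamer: tcagtgggctgATTTGCATgctctattgtg
Blnk octamer: tactggaagggATTTGCATgcccaataagg

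The E-box was present in 4 members' windows, those of Cd79a, Vpreb1, Igll1 and Blnk, against 20.2% of all windows. Those of Cd79a and Vpreb1 are shown, one from a signalling gene and one from a surrogate light chain gene, with the E-box in capitals. They lie at chr7:24897332-24897359 on the plus strand and at chr16:16869327-16869354 on the minus strand. The EBF palindrome, spelled strictly, was in 0 members' windows and in 0.904% of all windows. A match in these letters is a description, not a binding site, and no match says only that the letters are not in the window.
Cd79a E-box: tgtggccagccCAGGTGcagggcagttc
Vpreb1 E-box: tgacgttccagCAGGTGcttcctcccag

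Libraries held 19.2 to 29.2 M (mega) counts, and 3 counts, the floor used here, corresponded to 0.10 to 0.160 CPM (counts per mega counts of the library). The summed level of the olfactory receptor genes was 108 CPM in BM LSK 3, the lowest, and 404 CPM in CNS LSK 2, the highest. By group it was 228 ± 93.4 CPM in BM LSK, 343 ± 50.6 in CNS LSK, 161 ± 27.3 in BM LK and 236 ± 83.3 in CNS LK (SD, 4 libraries each). The number of genes with a count had the same extremes, 33600 for BM LSK 3 and 46067 for CNS LSK 2. The 99th percentile of single olfactory receptor genes, taken in each library, lay between 0.486 and 1.21 CPM, or 10.9 to 29.9 counts.

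Against that background 1 of the 9 genes stood apart. Pou2af1 exceeded the 99th percentile of olfactory receptor genes in 16 of 16 libraries, as did 23.4% of all 52081 identifiers with a symbol. Vpreb3 did so in 14 libraries, Cd79a in 11, Blnk in 10, Ebf1 in 4, Pax5 in 3 and Cd79b in 1, while Vpreb1 and Igll1 did so in 0. In bulk RNA, fewer cells of a type and less RNA per cell cannot be told apart, so a low level does not say how many cells transcribed the gene.

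**Figure D1:**
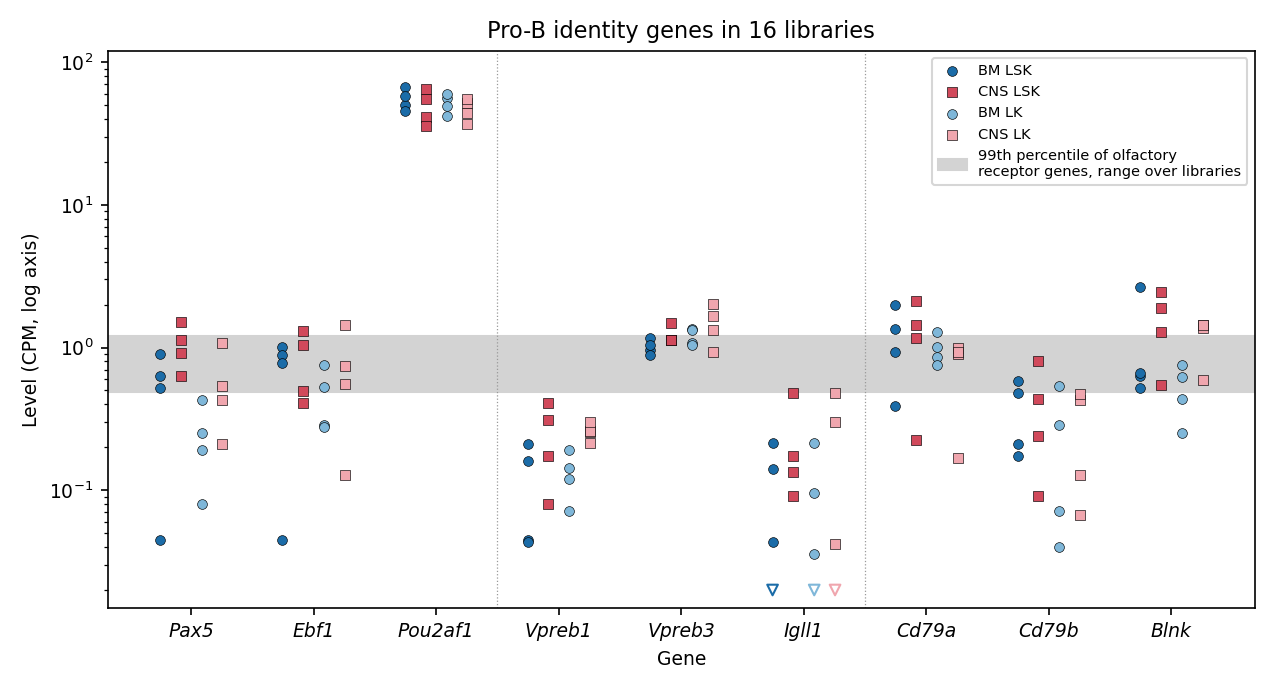
Level of each pro-B identity gene in CPM (log axis) in each of the 16 libraries, coloured by group, with the band of the olfactory receptor 99th percentiles, which ran from 0.486 to 1.21 CPM. Open triangles at the bottom mark libraries with 0 counts, and Pou2af1 alone lies above the band in every library.

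Pax5, which holds B-lineage cells to their fate, was counted 17, 18, 1 and 12 times in BM LSK 1 to 4, and 21, 28, 34 and 14 times in CNS LSK. It was counted 7, 12, 4 and 2 times in BM LK and 8, 5, 25 and 16 times in CNS LK. These counts correspond to 0.593 ± 0.419 CPM over the 16 libraries, and the group means were ordered CNS LSK, CNS LK, BM LSK, BM LK. Ranges of neighbouring groups overlapped, while CNS LSK, the highest of the 4 groups, lay wholly above BM LK, the lowest. The olfactory receptor sum did so too, at 280 to 404 CPM in CNS LSK against 122 to 183 CPM in BM LK. The share of all identifiers without overlap between these groups was not computed. Mean Pax5 CPM ranked at percentile 98.6 among olfactory receptor genes, but at percentile 73.1 once levels were divided by exon length.

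Ebf1, which acts before and together with Pax5, had 19, 25, 1 and 18 counts in BM LSK and 30, 26, 11 and 9 in CNS LSK. In BM LK it had 8, 21, 11 and 7 counts, and in CNS LK 14, 3, 13 and 43. The ranges of all 4 groups overlapped, and the mean over libraries was 0.667 ± 0.403 CPM. Per kilobase of exon, Pax5 stood at 0.0670 and Ebf1 at 0.0684 CPM per kb, beside an olfactory receptor median of 0.0494 and a 99th percentile of 0.237. Neither gene exceeded the per-kilobase 99th percentile in any library.

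Pou2af1, the octamer coactivator, reached 67.0, 49.7, 58.2 and 45.6 CPM in BM LSK 1 to 4 and 64.7, 41.2, 54.9 and 35.5 CPM in CNS LSK 1 to 4. In BM LK it reached 55.9, 41.9, 59.7 and 49.6 CPM, and in CNS LK 51.6, 36.9, 55.2 and 44.0 CPM. Its counts ran from 784 to 1561, and its highest library was 1.89-fold its lowest. Over all 16 libraries Pou2af1 averaged 50.7 ± 9.40 CPM, and per kilobase its 19.9 ± 3.69 CPM per kb was 13.9-fold that of Vpreb3, the next member. The highest olfactory receptor gene, Olfr1357, averaged 19 CPM and the second, Olfr1029, 4.79 CPM, beside a median of 0.121 CPM for the set. Pou2af1 was above every olfactory receptor gene in all 16 libraries. In the annotation a gene model, Gm47828, lies within the Pou2af1 locus on the same strand, and how the counting treated such overlaps is not given in the sources used here.

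Among the surrogate light chain genes, Vpreb1 had at most 9 counts in any library and averaged 0.187 ± 0.104 CPM. Vpreb1 has a near-identical copy, Vpreb2, and overlaps Top3b on the opposite strand, so its few counts are uncertain. Igll1, which encodes lambda5, had at most 12 counts, averaged 0.153 ± 0.155 CPM and was at 0 in 3 libraries, BM LSK 3, BM LK 4 and CNS LK 3. A count of 0 allows up to 3 counts at these depths, in counting error only. Vpreb1 ranges of neighbouring groups overlapped. In CPM, CNS LK lay just above BM LSK, with 0.213 in CNS LK 1 (4 counts) against 0.212 in BM LSK 2 (6 counts). The raw counts of these groups overlapped, and the share of all identifiers without overlap between them was not computed. Mean levels of Vpreb1 and Igll1 ranked at percentiles 70.9 and 61.4 among olfactory receptor genes.

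Vpreb3, which is related to Vpreb1 and associates with immunoglobulin chains inside the cell, differed from the other members with low levels. It had 22, 27, 20 and 24 counts in BM LSK, 26, 28, 25 and 33 in CNS LSK, 30, 29, 28 and 33 in BM LK, and 31, 48, 31 and 28 in CNS LK. The highest of the 16 levels was 2.28-fold the lowest, against 34.2-fold for Pax5 and 32.3-fold for Ebf1. Vpreb3 averaged 1.23 ± 0.298 CPM and 1.43 CPM per kb, and per kilobase it exceeded the 99th percentile of olfactory receptor genes in 16 of 16 libraries. A pseudogene model, Gm16221, overlaps Vpreb3 on the opposite strand.

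Of the signalling genes, Cd79a had 37, 38, 21 and 9 counts in BM LSK, 49, 36, 26 and 5 in CNS LSK, 36, 24, 21 and 19 in BM LK, and 17, 4, 23 and 28 in CNS LK. Its mean was 1.03 ± 0.540 CPM and 0.708 CPM per kb, above the per-kilobase 99th percentile in 13 libraries. Of the low libraries, BM LSK 4 and CNS LSK 4 share the stem of their description in the labels, and CNS LK 2 has another, and all 4 group ranges overlapped. Its partner Cd79b averaged 0.315 ± 0.225 CPM, with 1 to 18 counts a library.

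Blnk, the adaptor, had 50, 18, 15 and 12 counts in BM LSK and 56, 32, 42 and 12 in CNS LSK. In BM LK it had 21, 7, 13 and 11 counts and in CNS LK 27, 14, 32 and 43. Group means were 1.12 ± 1.03 CPM in BM LSK, 1.53 ± 0.810 in CNS LSK, 0.516 ± 0.219 in BM LK and 1.21 ± 0.414 in CNS LK. CNS LSK had the highest mean and BM LK the lowest, and their ranges overlapped. Blnk exceeded the per-kilobase 99th percentile in 1 library only.

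The 9 genes together summed to between 39.4 CPM in CNS LSK 4 and 75.5 CPM in BM LSK 1, and Pou2af1 made up 85.8% to 94.8% of that sum. Group means of the sum were 60.2 ± 11.4 CPM in BM LSK, 55.8 ± 15.1 in CNS LSK, 55.6 ± 8.30 in BM LK and 52.4 ± 9.25 in CNS LK. Without Pou2af1 the other 8 genes summed to 5.07 ± 2.45, 6.71 ± 2.03, 3.84 ± 0.695 and 5.47 ± 1.28 CPM in the same order. The order of the groups by this smaller sum differed from that of the full sum, since CNS LSK was highest and BM LK lowest.

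The summed level of these 8 genes followed the olfactory receptor sum over the 16 libraries. On log2 values Pearson's r was 0.803 and Spearman's rho 0.800 (16 libraries), and r was 0.723 without BM LK 4 and BM LSK 3, the libraries farthest from the median. Within the 8 BM libraries r was 0.786 and within the 8 CNS libraries 0.678. All points are CPM of the same libraries and share their depth and composition, so the correlation is a description. As a share of the olfactory receptor sum the 8 genes came to 2.36% ± 0.526 in BM and 2.18% ± 0.532 in CNS libraries. Single genes varied: r was 0.877 for Pax5, 0.800 for Ebf1 and 0.640 for Blnk, but -0.193 for Vpreb3 and -0.00967 for Pou2af1.

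**Figure D2:**
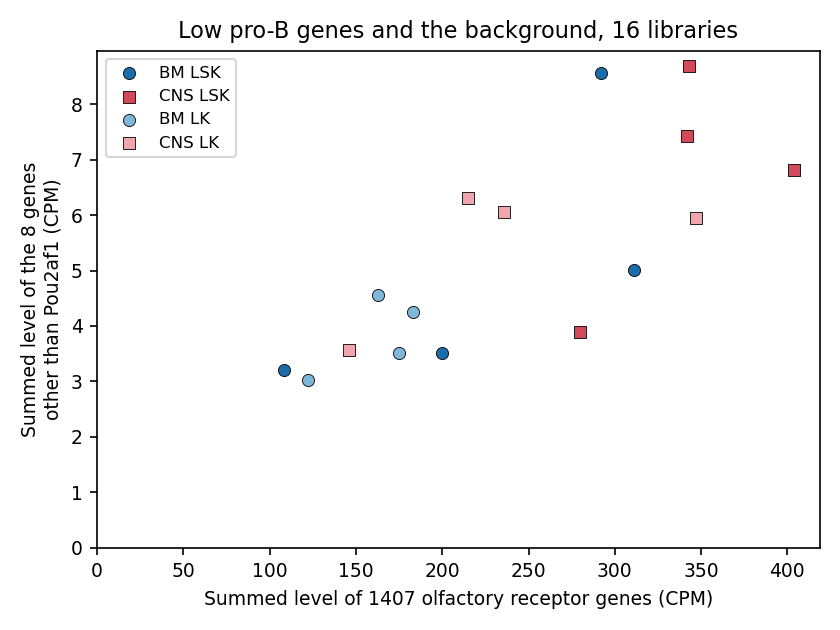
Summed CPM of the 8 genes other than Pou2af1 (vertical axis) against the summed CPM of all olfactory receptor genes (horizontal axis), both on linear axes from 0, with 1 point per library coloured by group. Libraries with a higher olfactory receptor sum had a higher sum of these 8 genes (r 0.803 on log2 values, 16 libraries).

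The rest of the B-lineage programme was not uniformly low. Of 35 other B-lineage genes, 21 exceeded the olfactory receptor 99th percentile in all 16 libraries, 7 in some and 7 in 0, with a median of 3.28 CPM. The 5 highest were Ikzf1, a lymphoid transcription factor gene, at 293 ± 21.0 CPM, Rag1, a recombinase gene, at 275 ± 40.1 CPM, Cd93, a surface marker of early progenitors, at 180 CPM, Lef1 at 179 CPM and the E protein gene Tcf3 at 134 CPM. The 5 lowest were the kinase genes Btk at 0.256 and Blk at 0.157 CPM, the heavy chain constant region gene Ighm at 0.131 CPM, Fcrla at 0.0995 CPM and Vpreb2, the copy of Vpreb1, at 0.0430 CPM. Of the high genes, Ikzf1, Rag1, Lef1 and Tcf3 also act in developing T cells.

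Markers of other cell types were read in the same way. Of 12 genes of later B-cell stages, 1 exceeded the background in all libraries and 7 in 0. The highest was Cr2, complement receptor 2, at 2.39 CPM. Of 23 T-lineage genes, 19 exceeded it in all 16 libraries, led by Notch1 at 1404 ± 116 CPM, Tcf7 at 577 ± 54.3 CPM and Il2ra at 483 ± 134 CPM. The T-cell receptor subunit genes Cd3g, at 0.570 CPM, and Cd3e, at 0.276 CPM, were among the lowest of that list, with Cd5 at 0.533 CPM. The summed T-lineage level was 3551 to 4499 CPM over the libraries. Against the pro-B label of these cells, Pax5 and Ebf1 exceeded the per-kilobase background in 0 libraries, Cd79a did so in 13, and Vpreb3 and Pou2af1 in 16.

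Lists for cells of both tissues were mostly at background. Of 14 myeloid genes 1 exceeded it in all libraries, and the list summed to 3.78 to 37.1 CPM, led by Fcgr3, an Fc receptor gene, at 10.6 ± 11.4 CPM. Of 8 microglial genes 1 did so, Gpr34 at 4.23 CPM, while P2ry12, at 0.215, and Tmem119, at 0.158 CPM, lay near the olfactory receptor median of 0.121. Of 10 neural and glial genes 3 did so, led by the myelin gene Mbp at 36.2 CPM. Of 8 erythroid and 5 megakaryocyte genes 0 did so, against 3 of 5 plasmacytoid dendritic cell genes, led by Ly6d at 96.4 CPM, and 6 of 6 genes that every cell uses.

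**Figure D3:**
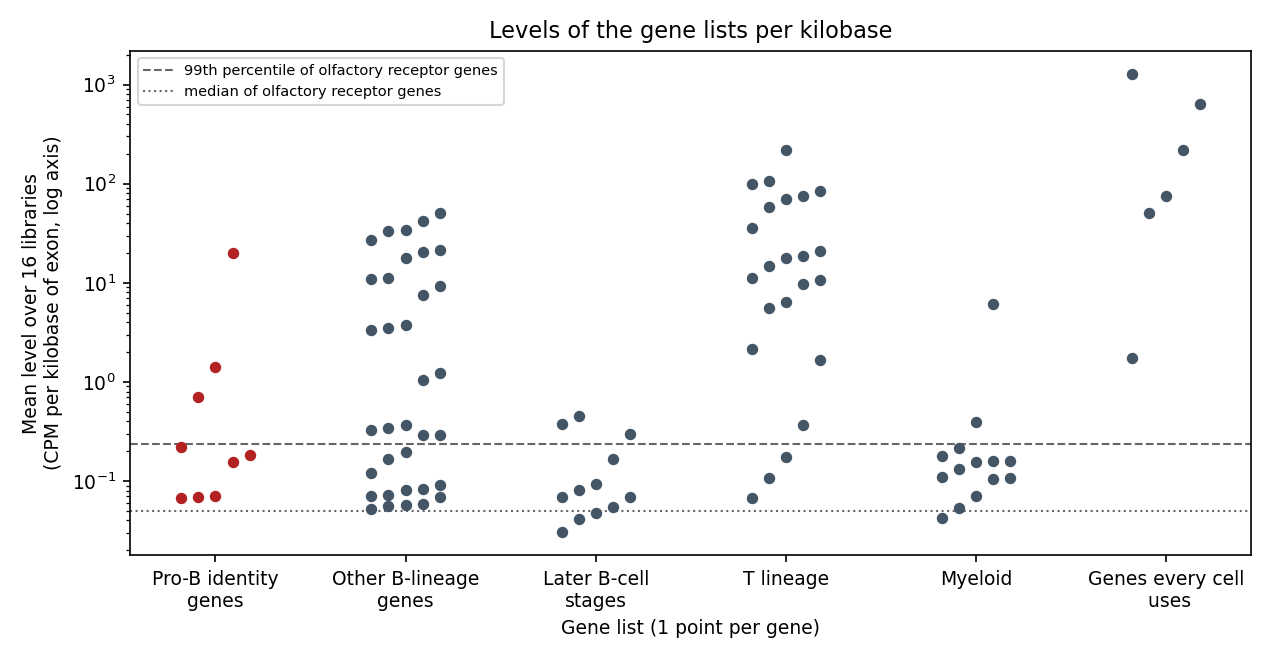
Mean CPM per kilobase of exon over the 16 libraries (log axis) for each gene of the pro-B identity list and of 5 other lists, 1 point per gene. The dotted and dashed lines are the median (0.0494) and the 99th percentile (0.237) of the olfactory receptor genes, and of the pro-B identity genes only Cd79a (0.708), Vpreb3 (1.43) and Pou2af1 (19.9) lie above the dashed line.

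The niche comparison asked whether cells from the CNS differed from cells from BM. Of the 9 genes, 6 had a mean of at least 10 counts and were tested: Pax5, Ebf1, Pou2af1, Vpreb3, Cd79a and Blnk. The main fit used no block on the description stems. In edgeR's quasi-likelihood test over both LPC types 0 of these 6 passed an adjusted p of 0.05, and 0% of the 18878 tested identifiers did. At an unadjusted p of 0.05, 2 of 6 members and 9.15% of all tested identifiers passed. DESeq2 called 40 identifiers, with 0 members among them. The members' median log2 change was 0.37, with 4 of 6 above 0, beside a median of 0.00 and 50% above 0 for all tested identifiers.

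Without the block, the members past the unadjusted threshold were Pax5 and Blnk, both with higher values in CNS libraries. For Pax5 the fitted log2 change was 1.10 (SE 0.42, 95% interval 0.23 to 1.98, edgeR adjusted p = 0.449), and the CNS library was higher in 7 of 8 pairs that share a description stem in the labels. For Blnk it was 0.86 (SE 0.37, interval 0.09 to 1.63, edgeR adjusted p = 0.495), with CNS above BM in 7 of 8 stems. With the stems as a block the Blnk change was 0.92 (SE 0.24, interval 0.41 to 1.43, edgeR adjusted p = 0.101). That of Pax5 was 1.11 (SE 0.46, interval 0.14 to 2.08, edgeR adjusted p = 0.308). Both genes moved with the olfactory receptor sum, which was itself higher in the CNS library of 7 of 8 stems. With that sum as a covariate, an alternative chosen after the data were seen, the log2 change was 0.23 for Pax5 and 0.33 for Blnk. The part of the olfactory receptor background in either difference was not otherwise tested.

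Pou2af1 went the other way by a small amount. In 8 of 8 stems its CNS level lay under that of the BM partner, which was so for 1.45% of tested identifiers. The fitted log2 change was -0.15 (SE 0.12, interval -0.40 to 0.09, edgeR adjusted p = 0.762), and -0.23 to -0.08 when each library was left out in turn. With the stems as a block it was -0.17 (SE 0.04, interval -0.26 to -0.08, edgeR adjusted p = 0.0967), still short of the threshold. The block raised the calls over all identifiers from 0 to 126, or 0.667%, with 0 members among them. At an unadjusted p of 0.05 with the block, 3 of 6 members (Pou2af1, Blnk and Pax5) and 13.4% of identifiers passed. BM and CNS ranges overlapped in both LPC types, and with the olfactory receptor sum as a covariate the change was -0.21.

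**Figure D4:**
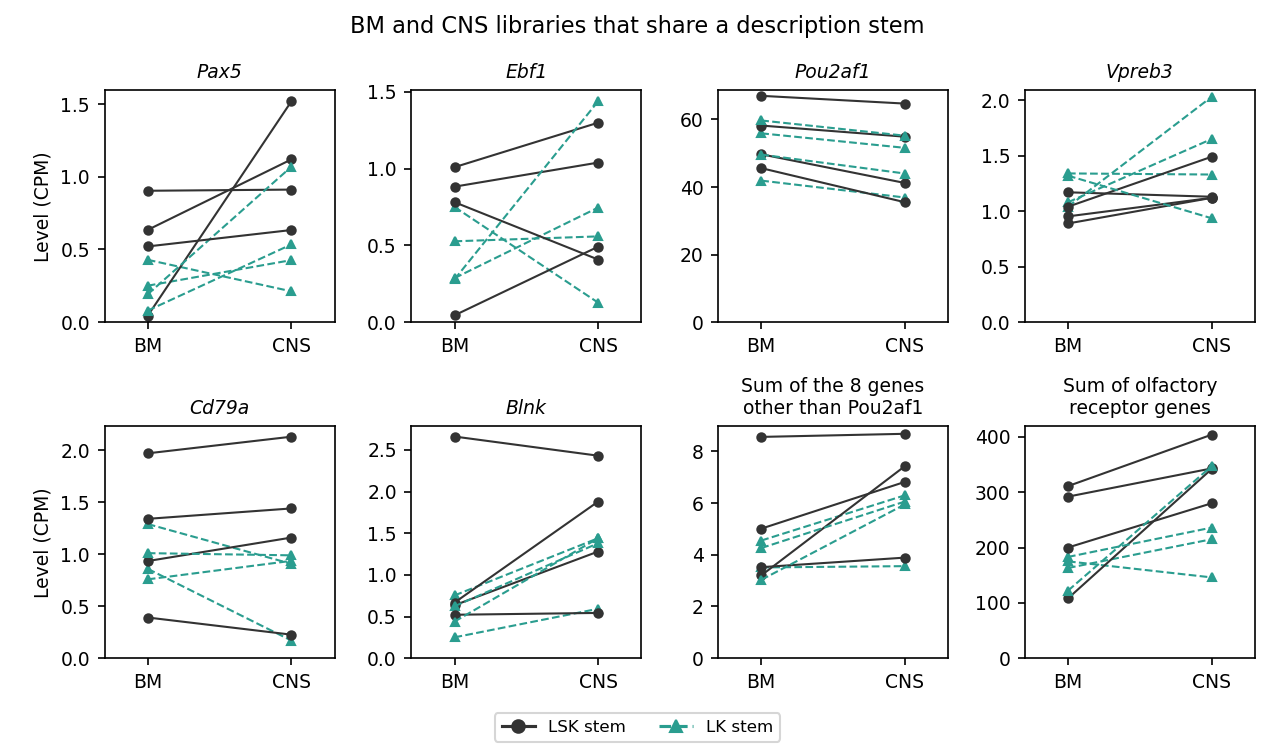
Levels in the BM and the CNS library of each of the 8 description stems, joined by a line, in CPM on linear axes from 0, for the 6 members tested, the sum of the 8 genes other than Pou2af1 and the olfactory receptor sum. Circles with solid lines are LSK stems and triangles with dashed lines LK stems. For Pou2af1 all 8 lines fall from BM to CNS, and for the sum of the other 8 genes all 8 rise.

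The other tested members had intervals that include 0 in the fit without a block. For Ebf1 the log2 change was 0.46 (interval -0.48 to 1.40), for Vpreb3 0.29 (-0.09 to 0.67) and for Cd79a -0.13 (-0.92 to 0.65). Ebf1 changed direction with the olfactory receptor sum as a covariate, to -0.83. These intervals do not show that the levels were alike, and for Ebf1 and Cd79a they span changes of more than 1 log2 unit in width. The sum of the 8 genes other than Pou2af1 was greater in CNS than in BM in 8 of 8 stems. The least difference was from 3.51 CPM in BM LK 2 to 3.56 CPM in CNS LK 2, the stem in which the olfactory receptor sum was lower in the CNS library (175 and 146 CPM). The largest log2 difference, 1.10, was in BM LSK 3 and CNS LSK 3, the pair in which the olfactory receptor sum also differed most, by 1.66.

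Within single LPC types the niche fits called 0 of 6 members too, and 0% of the tested identifiers. Within LSK the log2 change was 1.00 for Pax5, 0.49 for Blnk and -0.17 for Pou2af1. Leaving out 1 library at a time moved these to between 0.62 and 1.35 for Pax5, 0.18 (without CNS LSK 1) and 1.33 (without BM LSK 1) for Blnk, and -0.33 and -0.03 for Pou2af1. At an unadjusted p of 0.05, 0 of 6 members and 5.74% of identifiers passed. Of the members 5 of 6 had log2 changes above 0, beside 51.3% of identifiers. Within LK it was 1.20 for Pax5, 1.23 for Blnk and -0.14 for Pou2af1, with ranges on leaving out a library of 0.69 to 1.65, 0.99 to 1.49 and -0.24 to -0.04. In that fit 1 of 6 members, Blnk, and 3.99% of identifiers passed the unadjusted p. Of the members 4 of 6 were above 0, beside 51.5% of identifiers. The stem block called 26 identifiers within LSK (0.138%) and 12 within LK (0.0636%), with 0 members in either. At an unadjusted p of 0.05 with that block, 1 of 6 members and 10% of identifiers passed within LSK, and 2 of 6 and 6.26% within LK.

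The second question was whether LSK cells differed from LK cells. The edgeR quasi-likelihood test over both niches called 0 of 6 members and 45 identifiers, 0.238% of those tested. At an unadjusted p of 0.05, 1 member, Pax5, and 12.1% of identifiers passed. Members' log2 changes were above 0 in 5 of 6, with a median of 0.42, beside 46.8% and a median of -0.01 over all tested identifiers. The exception was Vpreb3, at -0.26 (interval -0.64 to 0.12).

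For Pax5 the LSK minus LK change was 0.99 (interval 0.11 to 1.87, edgeR adjusted p = 0.359), and for Blnk 0.71 (interval -0.06 to 1.48, edgeR adjusted p = 0.459). Without BM LSK 1 the Blnk change was 0.29. Pou2af1 stood at 0.08 (interval -0.17 to 0.33, edgeR adjusted p = 0.842), the narrowest interval of the 6. The olfactory receptor sum was also higher in LSK than in LK libraries of the same niche on average, and with it as a covariate the members' median was 0.01. Whether a niche difference itself differed between LSK and LK was tested as an interaction. It called 0 of 6 members and 0% of identifiers, and at an unadjusted p of 0.05 it passed 0 members and 1.49% of identifiers, and with the stem block 0 members and 3.12%.

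**Figure D5:**
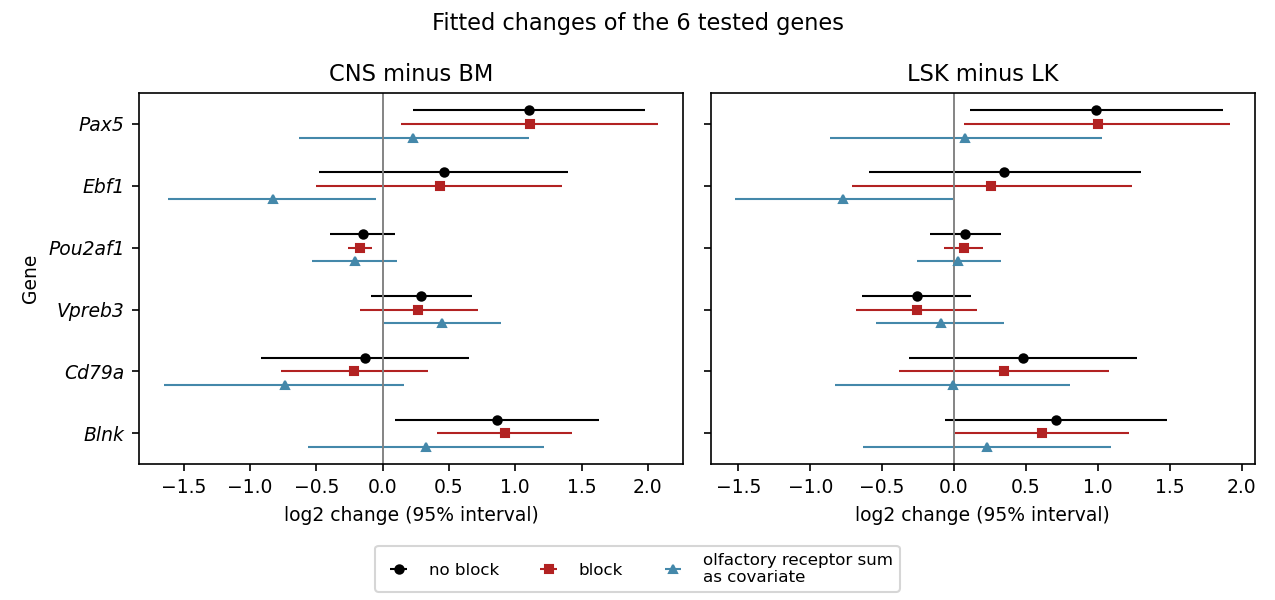
Fitted log2 changes with 95% intervals for the 6 tested genes, CNS minus BM (left) and LSK minus LK (right). Black circles are the fit without a block, red squares the fit with a block (on stems at left, on title numbers at right) and blue triangles the fit with the olfactory receptor sum as a covariate. Pou2af1 has the narrowest intervals without a block, and Ebf1 lies above 0 without the covariate and below 0 with it.

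In the niche and LPC type comparisons the groups overlapped for each tested member. The ranges of BM and CNS libraries overlapped for 6 of 6 members over all libraries, within LSK and within LK, as did those of LSK and LK libraries. Among all tested identifiers 0.0265% had no overlap between BM and CNS, 3.68% between BM LSK and CNS LSK, 2.18% between BM LK and CNS LK, and 0.0901% between LSK and LK.

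Among 11639 genes with a mean of at least 50 counts, those whose levels were most like the summed level of the 9 genes over the 16 libraries were Mum1l1 (r 0.917), Speg (0.910), Kif7 (0.896) and Ptgfrn (0.895). That sum is mostly Pou2af1, and the genes most like Pou2af1 alone were Akap12 (0.923), Sytl2 (0.910) and Ptgfrn (0.901). Akap12, a scaffold gene that was also in the B-lineage list, averaged 48.3 CPM. These values are descriptions over libraries that share their depth scaling, picked as the highest of many, and carry no p.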

How the data were processed

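RNA of 16 sorted cell libraries was extracted with a low-input column kit and made into stranded total RNA libraries, per the labels' protocols. The submitters' processing notes name GRCm39 and DESeq2, without a role. The aligner, the counter and any use of strand or molecular identifiers are not given in the sources used here. The deposited table was named as normalised, but it held whole numbers with a different total in each library, so the authors' values were treated as raw counts. Each of the 16 count columns matched 1 sample by its label, and unused sample columns numbered 0. Symbols came from an identifier table. The 3333 identifiers without one held 41.8% of counts and stayed in the library sizes.

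Counts averaging 10 or more over the libraries were required, which kept 18878 identifiers. These were scaled by TMM and fitted as 4 group means in edgeR 4.0.16 (R 4.3.3). The 5 contrasts used the two-sided quasi-likelihood test with Benjamini-Hochberg adjustment at 0.05. DESeq2 1.42.0, no filter, each library left out, blocks and an olfactory receptor covariate were alternatives. Code was tested on simulated data. CPM used TMM-scaled library sizes, and CPM per kb used exon length from GENCODE M21, an annotation of GRCm38. Libraries of a group differed more than counting error allows (8.64 to 34.5 chi-square units per degree of freedom), so none was counted as a duplicate. Floors cover counting error only, while the fits' intervals include the spread between libraries.

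BM and CNS libraries of a number share a description stem. On log2(CPM + 0.5), deviations from group means correlated over 0.1 in 8 of 8 stems (lowest 0.112, median 0.29), so stems were taken to pair libraries. The lowest value is close to the limit, and another scale could give fewer stems past it. Title numbers across LSK and LK did so in 4 of 8 and were not taken as pairs.

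The 9 genes, the gene lists and the naming rule were chosen with earlier results of these data known. All 9 are named. By the rule, the highest and lowest of each other list by mean CPM could be named (up to 5 each for B-lineage genes, up to 3 for others). Any list gene called in a contrast was to be added, of which there were 0. Outside the B-lineage and T-lineage lists only some of these genes are named, and none of the erythroid, megakaryocyte and every-cell lists. Genes most like the members are the 5 with the highest Pearson r for the sum and 3 for Pou2af1; 1 of the 5 is not reported here. The 3 motifs were chosen after the promoter windows had been looked at, when a looser EBF core and other short motifs were also tried.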

Additional observations from a re-analysis of the deposited data

Results flagged for a closer look

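In 4 of the 44 sets of 4 libraries examined, 1 library lay far from the other 3 by Dixon's criterion, which chance alone flags in about 1 set in 20, or 2.20 sets here. Blnk stood at 2.66 CPM in BM LSK 1, where the other libraries of the group had 0.521 to 0.667 CPM, and its stem partner CNS LSK 1, at 2.43 CPM, was the highest of its own group. Blnk was at 0.593 CPM in CNS LK 2, below 1.38 to 1.44 CPM in the rest. Cd79a was also low in CNS LK 2, at 0.169 CPM against 0.907 to 0.989 CPM, and that library had the lowest olfactory receptor sum of its group, 146 CPM. Vpreb3 was high in CNS LSK 4, at 1.49 CPM against 1.12 to 1.13 CPM.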

How the results depend on the processing

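No setting called a member: of 528 member log2 changes recomputed for niche and LPC type, 513 kept direction and side of the threshold, 15 reversed (8 on leaving out a library) and 0 passed. The olfactory receptor covariate, chosen after seeing the data, reversed Ebf1 (-0.83 over both LPC types, -0.92 in LSK, -0.74 in LK, -0.77 for LPC type), Cd79a (-0.52 in LSK, -0.01 for LPC type) and Blnk (-0.06 in LSK). In the interaction, not in that count, it moved Vpreb3 from -0.05 to 0.01. The cause was not tested. Leaving out libraries gave -0.33 to 0.04 for Cd79a niche, -0.27 to 0.47 in LSK, -0.12 to 0.50 for Ebf1 in LSK and -0.003 to 0.16 for Pou2af1 LPC type. Calls over all identifiers moved more. The replicate block on stems gave 126 for niche, 26 in LSK and 12 in LK against 0, changed no other call, and left Pou2af1 at an adjusted p of 0.0967 and Blnk at 0.101. No filter gave 85, 10 and 14, and DESeq2 40 for niche. LPC type gave 45, then 290 with no filter, 222 by DESeq2, 162 with a replicate block on title numbers, 9 with the covariate, and 15 (without CNS LK 3) to 138 (without CNS LSK 2); it was 133 without BM LSK 3 and 105 without CNS LK 4. Genes above the background numbered 1, or 2 at the 95th percentile or per kilobase, and 4 by means. Sums without Pou2af1 were 5.07, 6.71, 3.84 and 5.47 CPM. Leaving out a library gave 55.1 to 63.9, 49.9 to 61.2, 52.8 to 59.0 and 49.5 to 56.4 CPM for the full sums. Depth limits Cd79b, Vpreb1 and Igll1, which fell under the count minimum.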

Other observations

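Rag1 and Rag2, whose products act together as the recombinase, differed in level: Rag1 averaged 275 CPM and Rag2 0.566 ± 0.268 CPM, above the olfactory receptor 99th percentile in 2 of 16 libraries. Rag2 falls outside the naming rule and was picked after its values were seen.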
